A study of Homo sapiens with 24 samples.

Results

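The 34 genes described here make, regulate or export cholesterol and make fatty acids, and they were taken by gene name from the 28297 Ensembl genes of a table of 28301 features. All 34 were found and all passed the filter on low values in each comparison. By role there were 7 genes of the mevalonate steps, 11 of the squalene and sterol steps, 5 regulators, 8 of fatty acid synthesis and desaturation and 3 of sterol export and transport. The list was given with results of these data known, but no measured value chose a member.

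H9, a widely used line of human embryonic stem cells, was profiled by mRNA sequencing: 24 libraries in 8 groups of 3. The engineered cells carried Cry2, the plant protein that blue light drives into clusters, fused to the tail of the Wnt co-receptor LRP6, together with mCherry and a puromycin resistance gene. The wild-type cells carried eGFP and a neomycin resistance gene, so neither line was free of added genes. The groups allow light-driven Wnt signalling to be compared with darkness, and wild-type cells to be followed next to signalling neighbours.

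Monocultures gave the groups Cry2 light, Cry2 dark, wt light and wt dark. Co-cultures of both lines in equal proportion were sorted by colour into mCh light and mCh dark, which are engineered cells, and GFP light and GFP dark, which are wild-type cells. Illumination lasted 48 h at 0.8 µW/mm². Replicates were pools of 2 to 3 wells, so the p-values below measure the spread between such pools.

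Cells make cholesterol from acetyl-CoA through the mevalonate pathway, which leads to squalene and then, by ring closure and a series of trimming steps, to cholesterol. Sterol regulatory element-binding proteins, made from SREBF1 and SREBF2, switch on most of these genes when membrane sterol is low: SCAP escorts them to the Golgi for activation, and the INSIG proteins hold them back in the endoplasmic reticulum. SREBF1 also drives fatty acid genes. Excess sterol is exported by ABC transporters, whose genes are targets of the liver X receptors, or is stored as esters. Pluripotent stem cells grown in culture are known for active lipid synthesis.

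Values are the authors' normalised read counts, that is, reads divided by 1 size factor per library; libraries of the co-culture groups are called a, b and c. Illuminated monocultures had 45748680 to 54689953 assigned reads per library and dark ones 28211236 to 34278319, so depth and light coincide there; co-cultures had 31763812 to 56620471. The mCh light library a stood apart from b and c of its group, and wt light replicate 2 from replicates 1 and 3, by a chi-square of 46.7 to 78.6 per degree of freedom, against 4.36 to 27.0 for the other pairs within groups. The puromycin gene averaged 2159 in Cry2 light, 1691 in Cry2 dark, 3189 in mCh light and 1868 in mCh dark; its mean was 0 in wt light and wt dark, 1.63 in GFP light and 2.50 in GFP dark. All 4 pluripotency markers fell in illuminated engineered cells, and all 4 primitive streak markers and all 3 Wnt response genes rose. The 4 pluripotency markers summed to 57323 to 59978 per library in Cry2 light and 57129.6 to 77958 in mCh light, against 172769 to 184722 in Cry2 dark and 174941 to 196480.5 in mCh dark. The 4 streak markers summed to 115899.5 to 119517 in Cry2 light and 107210.3 to 125125 in mCh light, against 192.0 to 243 in Cry2 dark and 176 to 186 in mCh dark. These markers moved together with each light effect in engineered cells given below; their part in it was not tested. Hepatocyte markers, a check on another lipid-making cell type, summed to at most 106.6 in any library, and PLIN1, an adipocyte marker, reached at most 19.5.

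The promoters of 5 genes are shown because these genes gave strong rises (MVK, HSD17B7, FADS1), the deepest fall (TM7SF2) or the only match to a sterol response motif (SREBF2). Each runs from 250 bases before to 50 bases after the annotated start, 5′ to 3′ on the gene's own strand, from RefSeq on GRCh38.p14. Capitals mark CCAAT on either strand (ATTGG on the other), the box bound by NF-Y, a usual partner of the sterol regulatory element-binding proteins, and TCACNCCAC on either strand, a form of the sterol response element. The windows are MVK at chr12:109573544-109573843 on the plus strand, HSD17B7 at chr1:162790452-162790751 on the plus strand, FADS1 at chr11:61816954-61817253 on the minus strand, TM7SF2 at chr11:65111622-65111921 on the plus strand and SREBF2 at chr22:41832855-41833154 on the plus strand.
MVK: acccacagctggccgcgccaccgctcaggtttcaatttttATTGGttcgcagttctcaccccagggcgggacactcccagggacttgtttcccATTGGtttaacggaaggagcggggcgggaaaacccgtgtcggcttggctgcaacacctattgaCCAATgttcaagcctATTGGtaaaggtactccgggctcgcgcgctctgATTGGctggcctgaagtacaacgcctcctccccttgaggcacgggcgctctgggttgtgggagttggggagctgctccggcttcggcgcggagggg
HSD17B7: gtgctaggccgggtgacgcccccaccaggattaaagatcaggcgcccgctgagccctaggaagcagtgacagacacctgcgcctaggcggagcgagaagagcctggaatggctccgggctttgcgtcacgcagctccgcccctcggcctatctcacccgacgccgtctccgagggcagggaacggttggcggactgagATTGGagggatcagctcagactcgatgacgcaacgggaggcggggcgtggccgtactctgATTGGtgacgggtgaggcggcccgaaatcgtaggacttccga
FADS1: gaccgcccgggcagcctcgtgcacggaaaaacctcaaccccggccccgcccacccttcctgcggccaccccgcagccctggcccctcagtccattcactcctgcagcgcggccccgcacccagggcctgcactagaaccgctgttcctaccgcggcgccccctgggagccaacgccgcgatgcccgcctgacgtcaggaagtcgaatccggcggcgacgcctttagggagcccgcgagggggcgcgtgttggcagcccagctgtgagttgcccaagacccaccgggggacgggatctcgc
TM7SF2: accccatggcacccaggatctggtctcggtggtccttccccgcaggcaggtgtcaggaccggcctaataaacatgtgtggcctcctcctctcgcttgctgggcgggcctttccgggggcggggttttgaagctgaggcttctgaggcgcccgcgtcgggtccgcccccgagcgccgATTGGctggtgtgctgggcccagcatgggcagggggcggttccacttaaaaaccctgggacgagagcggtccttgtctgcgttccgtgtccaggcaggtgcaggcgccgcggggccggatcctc
SREBF2: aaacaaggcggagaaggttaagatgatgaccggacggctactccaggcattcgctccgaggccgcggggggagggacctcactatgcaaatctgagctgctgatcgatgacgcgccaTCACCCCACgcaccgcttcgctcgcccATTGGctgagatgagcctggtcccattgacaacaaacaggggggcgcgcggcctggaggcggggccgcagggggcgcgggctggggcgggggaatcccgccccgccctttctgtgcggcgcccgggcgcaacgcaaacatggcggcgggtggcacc

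MVK held 5 CCAAT boxes in these 300 bases, HSD17B7 held 2, TM7SF2 and SREBF2 held 1 each, and FADS1 held 0. RefSeq promoters matched 29 of the 34 genes, in 40 windows; ACAT2, FDFT1, SQLE, FASN and ABCG1 were not matched. CCAAT was present in 25 of the 40 windows (62.5%), belonging to 21 of the 29 genes, and in 34.6% of all 35116 windows. TCACNCCAC was present in 1 of the 40 windows (2.5%) and in 1.13% of all windows. CTTTGAT, a motif of the TCF and LEF factors of Wnt signalling, searched on both strands, was present in 0 of the 40 windows and in 2.62% of all windows. These matches describe letters in the windows and no binding.

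All 34 genes were read in every group. Per kilobase of exon in wt dark, SCD, the main desaturase of saturated fatty acids, stood highest at 16460.4 normalised reads, ahead of FASN, the fatty acid synthase, at 6567 and ACLY, which makes cytosolic acetyl-CoA from citrate, at 6150.1. The lowest were CYP51A1, the lanosterol demethylase, at 62.5, INSIG2 at 81.8, MVK at 104 and ABCG1 at 149 normalised reads per kilobase. SCD had 88261 ± 3489.6 and FASN 61489 ± 4058 normalised reads before division by length (SD, n = 3, as for all values with ± below), spreads much smaller than the gap between these undivided means. CYP51A1, at 224 ± 27.8 normalised reads, is uncertain in level because the annotation places a pair of other protein-coding models on the same strand over its exons.

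**Figure D1:**
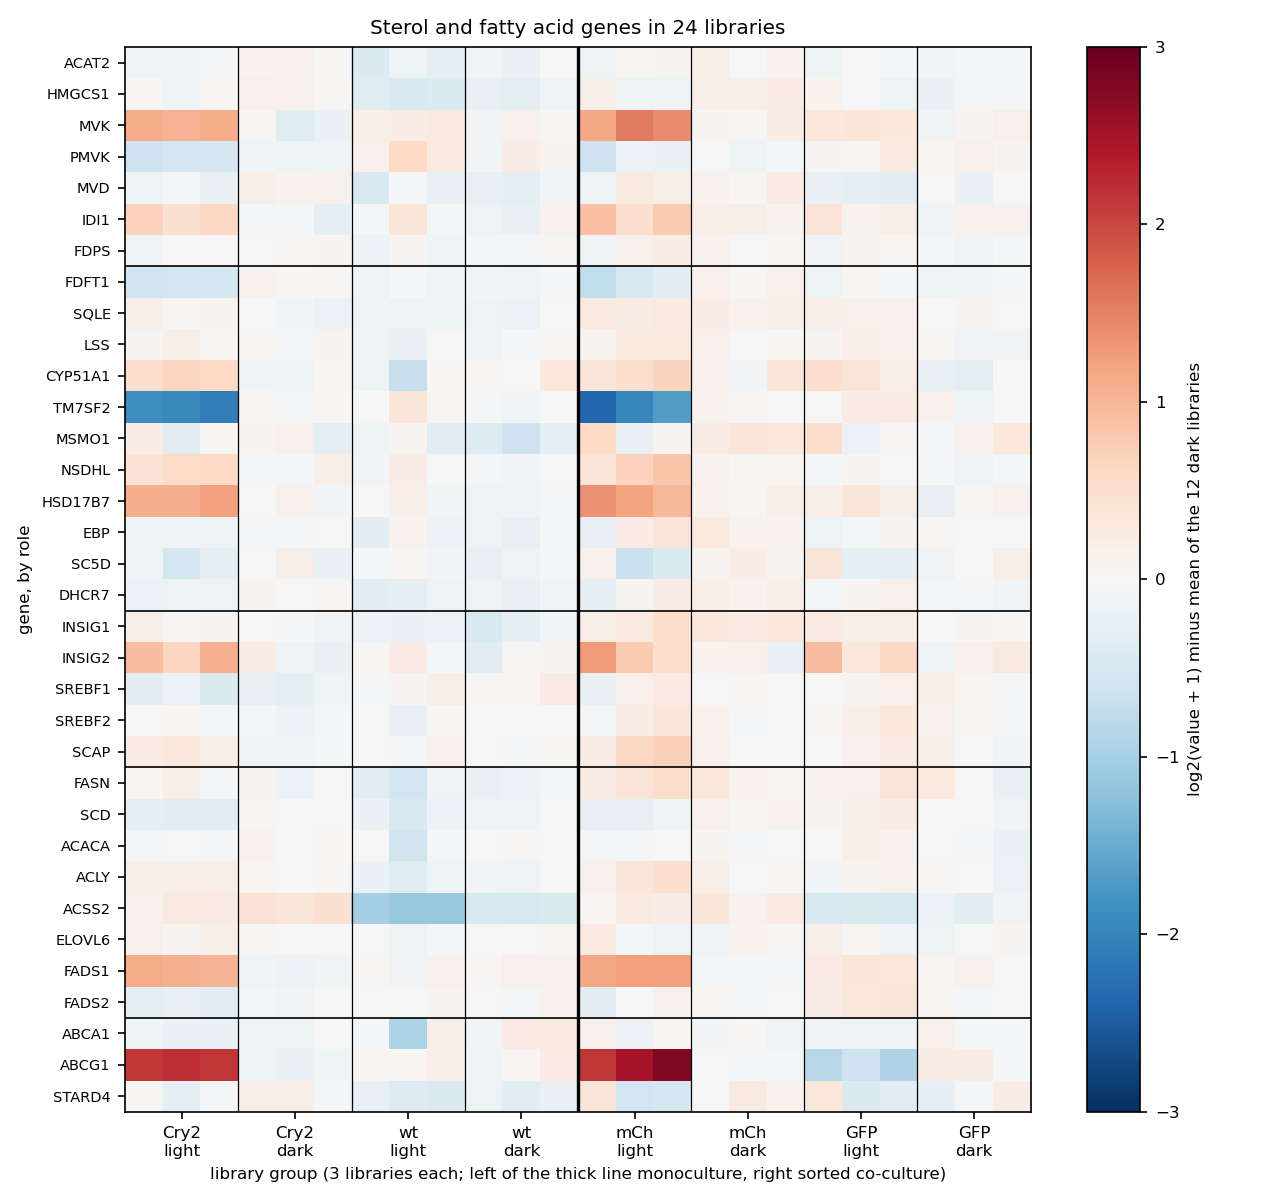
Each cell is 1 gene in 1 library, coloured by log2(normalised read count + 1) minus that gene's mean over the 12 dark libraries; rows are grouped by role, and columns by group, 3 libraries each, with monoculture left of the thick line. The illuminated engineered libraries differ most from the rest, with ABCG1, MVK, FADS1 and HSD17B7 high and TM7SF2 low in all 6, while ACSS2 is lowest in wt light.

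Light in engineered monoculture changed the pathway unevenly, raising 12 genes and lowering 10 of the 34 at an adjusted p under 0.05 in Cry2 light against Cry2 dark. Over all 19444 genes tested, 28.1% rose and 30.4% fell, together 58.4%, so the share of these genes that changed was near that of all genes. Their changes were smaller: the median absolute log2 change was 0.21 over the 34 genes and 0.51 over all genes. The 3 light and 3 dark libraries did not overlap for 25 of the 34 genes, against 65.7% of all genes. The median signed change was -0.03 over the 34 genes and -0.01 over all genes. In sorted engineered cells, mCh light against mCh dark, 9 of the 34 rose, against 27.2% of all genes, and 3 fell, against 28.7% of all genes. The groups did not overlap for 13 of the 34, against 58.4% of all genes; of all genes 55.9% were called in either direction. All 9 and all 3 were also called in the same direction in monoculture, making up 75.0% of the genes that rose there and 30.0% of those that fell. The split of 9 and 3 became 8 higher and 6 lower with TMM scaling of the reads, and 14 higher and 7 lower without mCh light library a. Over all genes 5288 were higher and 5569 lower at first. These became 5133 and 5765 with TMM scaling, and 5428 and 6047 without that library. In these bulk libraries fewer cells of a type and less RNA per cell cannot be told apart.

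Among the mevalonate steps, MVK, the mevalonate kinase, and IDI1, the isopentenyl diphosphate isomerase, rose in illuminated engineered cells of both cultures. MVK (ENSG00000110921; chr12:109573255-109598117 on GRCh38, plus strand) stood at 1422, 1359 and 1413 normalised reads in Cry2 light, against 668, 515 and 570.0 in Cry2 dark. In the co-culture MVK stood at 1476, 1925 and 1769.9 in mCh light, against 697, 669 and 763 in mCh dark. All 6 illuminated engineered libraries lay above every other library of the series for MVK. The rise of MVK was 2.39-fold in monoculture (log2 change 1.27, SE 0.10, adjusted p = 2.27e-08) and 2.43-fold in co-culture (log2 change 1.27, SE 0.11, adjusted p = 1.11e-07). In wild-type cells MVK had a log2 change of 0.21 in monoculture and 0.28 in co-culture, neither past the threshold, and the light effect of engineered cells exceeded that of wild-type cells by 1.06 in monoculture (adjusted p = 1.43e-05) and 0.99 in co-culture (adjusted p = 0.000108). MMAB, a cobalamin enzyme gene whose exons overlap those of MVK on the opposite strand, rose by 0.64 and 0.67 on the log2 scale in the same comparisons, and whether the counting used strand is not known here.

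IDI1 stood at 4846, 4103 and 4639.6 in Cry2 light, against 2893, 2889.9 and 2475 in Cry2 dark, with no overlap (1.65-fold, adjusted p = 6.66e-05). In mCh light IDI1 stood at 5633, 4249 and 5183, against 3470.1, 3360.3 and 3242 in mCh dark (1.5-fold, adjusted p = 0.000334). The groups again did not overlap. PMVK, the phosphomevalonate kinase that acts just after MVK, went the other way in monoculture, with 559 ± 23.3 in Cry2 light against 760.4 ± 15.2 in Cry2 dark (log2 change -0.44, adjusted p = 0.00318); in co-culture its change of -0.27 did not pass (adjusted p = 0.0682). MVD, the mevalonate diphosphate decarboxylase, fell by 0.26 on the log2 scale in Cry2 light (adjusted p = 0.0251), against a change of -0.03 in mCh light that did not pass. ACAT2, the cytosolic thiolase of acetyl-CoA, fell by 0.18 in Cry2 light (adjusted p = 0.0312) and had a change of -0.10 in mCh light. The MVD call in Cry2 light was lost without Cry2 light 3, Cry2 dark 1 or Cry2 dark 3 (adjusted p up to 0.0929). The ACAT2 call in Cry2 light was lost without Cry2 light 1, Cry2 light 2, Cry2 dark 1 or Cry2 dark 2, or with TMM scaling (adjusted p up to 0.101). The exons of ACAT2 overlap those of TCP1 on the opposite strand, which fell by 0.21. HMGCS1, which makes hydroxymethylglutaryl-CoA, and FDPS, which makes farnesyl diphosphate, did not pass in either culture; HMGCS1 had changes of -0.13 and -0.23 and FDPS of -0.06 and 0.02.

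Of the 11 squalene and sterol genes, HSD17B7, NSDHL and CYP51A1 rose in both cultures and TM7SF2 and FDFT1 fell in both. TM7SF2 (ENSG00000149809; chr11:65111845-65116384, plus strand), a sterol reductase that removes a double bond left by lanosterol demethylation, stood at 418, 394 and 358 in Cry2 light, against 1559, 1465 and 1578 in Cry2 dark. In mCh light it stood at 292, 388 and 476, against 1623, 1552 and 1491 in mCh dark. The 6 illuminated engineered libraries were the lowest 6 of all 24. TM7SF2 was 3.93-fold lower in Cry2 light (log2 change -1.98, SE 0.09, adjusted p = 7.07e-11) and 4.04-fold lower in mCh light (log2 change -2.04, SE 0.15, adjusted p = 1.35e-08). VPS51, which shares exons with TM7SF2 on the same strand, had changes of 0.13 and 0.21 that did not pass. LBR, the nuclear envelope protein with the same reductase activity, rose by 0.34 in Cry2 light (5024 ± 508 against 3949.8 ± 167 in Cry2 dark, adjusted p = 0.0022) and by 0.24 in mCh light (adjusted p = 0.0196).

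FDFT1, the squalene synthase that commits farnesyl diphosphate to sterols, stood at 17713, 18135 and 18533 in Cry2 light, against 28850.3, 27793 and 27738 in Cry2 dark. In mCh light FDFT1 stood at 16067, 19338 and 21360.2, against 29705, 27487 and 29747 in mCh dark. Neither pair of groups overlapped, and FDFT1 was 1.55-fold lower in Cry2 light (adjusted p = 4.93e-08) and 1.53-fold lower in mCh light (adjusted p = 5.95e-05). The next enzyme, SQLE, the squalene epoxidase, had 8344 ± 439 in Cry2 light against 7342 ± 465 in Cry2 dark (log2 change 0.19, adjusted p = 0.0231), and a change of 0.07 in mCh light that did not pass. The SQLE call in Cry2 light was lost without Cry2 light 1, Cry2 dark 2 or Cry2 dark 3 (adjusted p up to 0.119). LSS, which closes the sterol rings, had changes of 0.06 and 0.15, neither past the threshold.

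HSD17B7 (ENSG00000132196; chr1:162790702-162812817, plus strand), a keto-reductase that works with NSDHL in removing methyl groups from the sterol, stood at 2265, 2268 and 2485 in Cry2 light, against 1047, 1154 and 1000.1 in Cry2 dark. In mCh light it stood at 2733, 2411 and 2101, against 1134, 1106 and 1223 in mCh dark. These groups did not overlap, and the rises were 2.19-fold (adjusted p = 2.02e-08) and 2.09-fold (adjusted p = 1.34e-06). HSD17B7P2, a near-identical copy from which reads may be shared, had 183 ± 16.8 in Cry2 light, 54.8 ± 6.8 in Cry2 dark, 245 ± 115 in mCh light and 104 ± 18.3 in mCh dark, and means of 4.36 to 9.16 in the 4 wild-type groups. NSDHL, the sterol dehydrogenase, averaged 2652 ± 153 in Cry2 light against 1886 ± 169 in Cry2 dark (1.41-fold, adjusted p = 0.000138), and 2888 ± 425 in mCh light against 1926 ± 55.8 in mCh dark (1.5-fold, adjusted p = 0.000126).

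CYP51A1 averaged 312 ± 12 in Cry2 light against 196 ± 14.8 in Cry2 dark (1.59-fold, adjusted p = 0.00409). Its rise in mCh light was at the edge of the threshold, with 298 ± 31.5 against 228 ± 37.6 in mCh dark (1.31-fold, adjusted p = 0.0495). The CYP51A1 call in mCh light was lost without mCh light b, mCh light c, mCh dark a or mCh dark b, or with no filter on low values, or with TMM scaling, or in a fit of only the groups compared (adjusted p up to 0.215). DHCR7, the last reductase of the pathway, fell by 0.21 on the log2 scale in Cry2 light (6077 ± 75.2 against 7037 ± 250.3 in Cry2 dark, adjusted p = 0.00891) and had a change of -0.15 in mCh light. SC5D, the sterol desaturase before it, averaged 2459 ± 365 in Cry2 light against 3008 ± 401 in Cry2 dark (log2 change -0.29, adjusted p = 0.0304), but the groups overlapped. The SC5D call in Cry2 light was lost without Cry2 light 2, Cry2 dark 1 or Cry2 dark 2, or with no filter on low values (adjusted p up to 0.162). MSMO1, a sterol methyl oxidase, and EBP, a sterol isomerase, did not pass in either culture; MSMO1 had changes of 0.00 and -0.16 and EBP of -0.09 and -0.04.

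**Figure D2:**
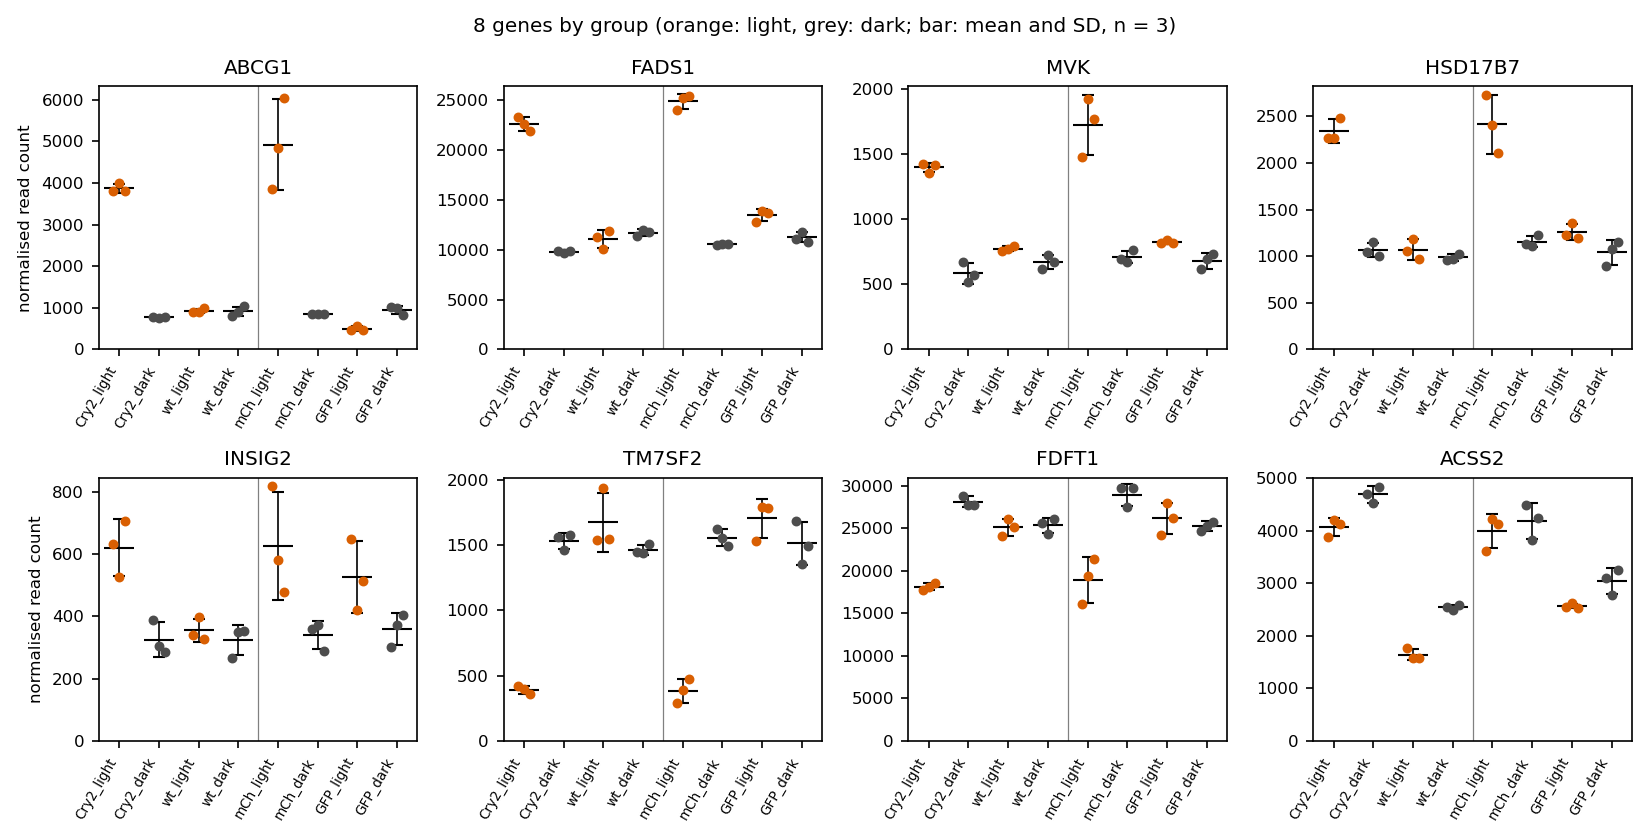
Normalised read counts of 8 genes in the 24 libraries, on linear axes that start at 0; points are libraries, orange for light and grey for dark, and bars give the mean and SD of 3 libraries, with monoculture left of the grey line. ABCG1, FADS1, MVK, HSD17B7 and INSIG2 are high in Cry2 light and mCh light, TM7SF2 and FDFT1 are low there, ABCG1 is low in GFP light, and ACSS2 is lower in all wild-type groups than in engineered ones.

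Among the regulators, the genes for the escort and 1 of the retention proteins rose, while those for the transcription factors themselves gave no call under light. INSIG2 (chr2:118088452-118110997) stood at 631, 525 and 706 in Cry2 light, against 388, 304 and 284 in Cry2 dark (1.91-fold, adjusted p = 0.000106). In mCh light INSIG2 stood at 818, 579.8 and 479, against 360.4, 372 and 289 in mCh dark (1.84-fold, adjusted p = 0.00224). The groups did not overlap in either culture. SCAP averaged 7044 ± 314 in Cry2 light against 5583 ± 123 in Cry2 dark (1.26-fold, adjusted p = 0.000184), and 8529.9 ± 1499 in mCh light against 6082 ± 362 in mCh dark (1.4-fold, adjusted p = 0.00343). INSIG1, a direct target of the sterol regulatory element-binding proteins, had 3317 ± 159 in Cry2 light and 2969 ± 117 in Cry2 dark (log2 change 0.16, adjusted p = 0.109) and a change of 0.04 in mCh light. SREBF2, the main factor for sterol genes, had changes of 0.09 and 0.15, and SREBF1, the main factor for fatty acid genes, of -0.11 and 0.04, none past the threshold. RAI1, whose exons overlap those of SREBF1 on the opposite strand, rose by 2.66 in Cry2 light and 2.64 in mCh light, so reads of SREBF1 are uncertain where strand was not used.

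The 8 fatty acid genes were led by FADS1, a desaturase of the highly unsaturated fatty acid route (ENSG00000149485; chr11:61799625-61829318, minus strand). FADS1 stood at 23355, 22685 and 21951 in Cry2 light, against 9899, 9639 and 9912 in Cry2 dark. In mCh light it stood at 24065, 25200.3 and 25463, against 10515, 10633 and 10607 in mCh dark. These values set the illuminated engineered libraries far from the dark ones, with rises of 2.31-fold (log2 change 1.21, SE 0.06, adjusted p = 1.1e-10) and 2.35-fold (log2 change 1.23, SE 0.07, adjusted p = 5.59e-10). FADS2, its neighbour on the other strand and the desaturase of an earlier step in the same route, averaged 27290.4 ± 1157 in Cry2 light against 32529.7 ± 1066 in Cry2 dark (log2 change -0.25, adjusted p = 0.00136), and had a change of -0.07 in mCh light. FADS2 shares exon positions with FADS1 on the opposite strand and with FEN1 on its own, and FEN1 rose by 0.66 in Cry2 light and 0.64 in mCh light.

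SCD fell in both cultures, to 76284, 72824 and 74744 in Cry2 light against 95818, 91395 and 91486 in Cry2 dark (log2 change -0.32, adjusted p = 0.00156). In mCh light SCD stood at 78494, 78939.8 and 86023, against 103204, 97362 and 99478 in mCh dark (log2 change -0.30, adjusted p = 0.0073). Neither pair of groups overlapped. ACLY and ELOVL6, an elongase of saturated chains, rose by 0.16 (adjusted p = 0.0442) and 0.14 (adjusted p = 0.0319) in Cry2 light, and had changes of 0.24 and 0.02 in mCh light that did not pass. The ACLY call in Cry2 light was lost without any 1 of the 6 libraries, or with no filter on low values (adjusted p up to 0.138). The ELOVL6 call in Cry2 light was lost without Cry2 light 1, Cry2 light 3, Cry2 dark 2 or Cry2 dark 3 (adjusted p up to 0.117). FASN and ACACA, the cytosolic acetyl-CoA carboxylase that feeds it, did not pass: FASN had changes of 0.10 and 0.23 and ACACA of -0.07 and -0.05.

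The widest change of the 34 genes was that of ABCG1 (ENSG00000160179; chr21:42199689-42297244, plus strand), a transporter that moves cholesterol out of cells. ABCG1 stood at 3799, 4000.5 and 3802 in Cry2 light, against 779, 755 and 786 in Cry2 dark. In mCh light it stood at 3863, 4833 and 6049, against 855, 844 and 849 in mCh dark. No illuminated engineered library was near any other library, and the rises were 5-fold (log2 change 2.32, SE 0.09, adjusted p = 4.1e-12) and 5.79-fold (log2 change 2.51, SE 0.14, adjusted p = 8.15e-10). ABCA1, a related exporter that is a liver X receptor target like ABCG1, averaged 1488 ± 54.3 in Cry2 light and 1584 ± 72.5 in Cry2 dark (log2 change -0.09, adjusted p = 0.722), and had a change of 0.07 in mCh light (adjusted p = 0.546). STARD4, which carries sterol through the cytosol, averaged 1934 ± 208 in Cry2 light and 2229.8 ± 202 in Cry2 dark (log2 change -0.21, adjusted p = 0.0713), and had a change of -0.37 in mCh light (adjusted p = 0.19).

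**Figure D3:**
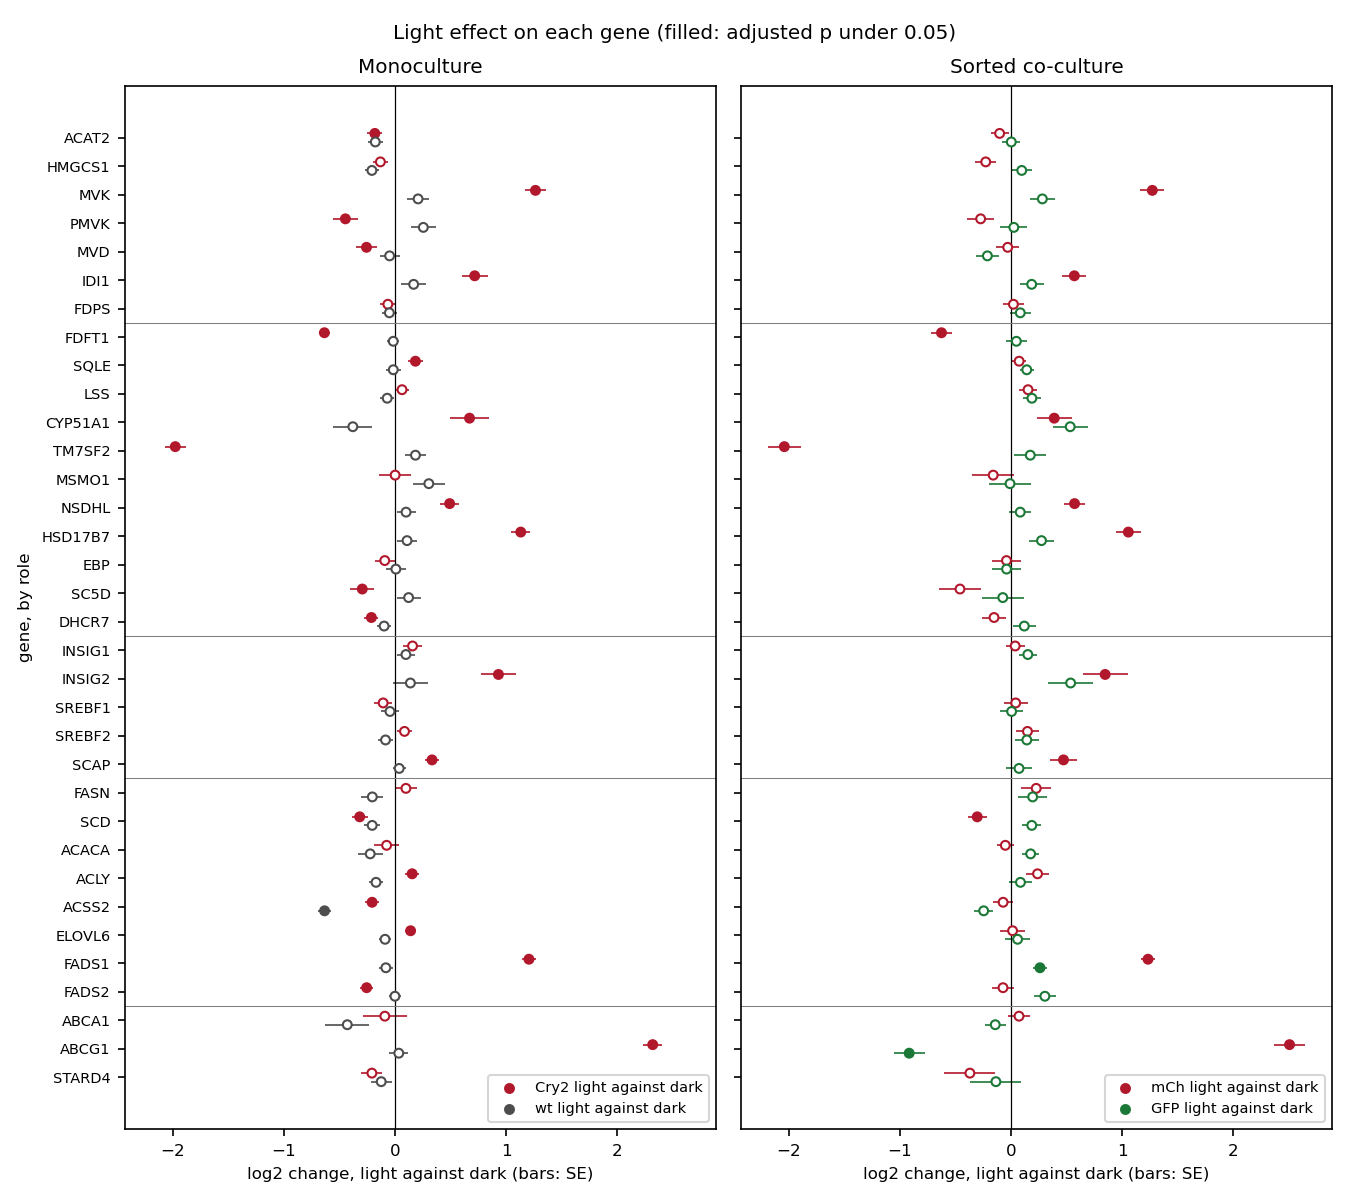
Log2 change of each gene under light against dark, with SE bars, in monoculture (left) and sorted co-culture (right); engineered cells are red, wild-type cells grey or green, and filled points passed an adjusted p of 0.05. Engineered cells changed in both directions, with ABCG1 at 2.32 and 2.51 and TM7SF2 at -1.98 and -2.04, while wild-type cells had a single filled point in monoculture (ACSS2) and a pair in co-culture (ABCG1 and FADS1).

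The light effect of engineered cells was tested directly against that of wild-type cells. In monoculture it was higher for 12 of the 34 genes, against 22.8% of all genes, and lower for 5, against 25% of all genes. In co-culture it was higher for 5, against 19.5% of all genes, and lower for 4, against 21% of all genes; in either direction 47.8% of all genes differed in monoculture and 40.5% in co-culture. ABCG1 differed by 2.28 in monoculture and 3.42 in co-culture, and TM7SF2 by -2.16 and -2.21. Between the cultures, the engineered light effect differed for 0 of the 34 genes by limma, against 0.064% of all genes, 0.0246% higher and 0.0394% lower; 0 also had an unadjusted p under 0.05, and edgeR and DESeq2 called 0. The sign of the light effect was shared by 30 of the 34 genes, and the widest difference between cultures was 0.28 on the log2 scale, that of CYP51A1.

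**Figure D4:**
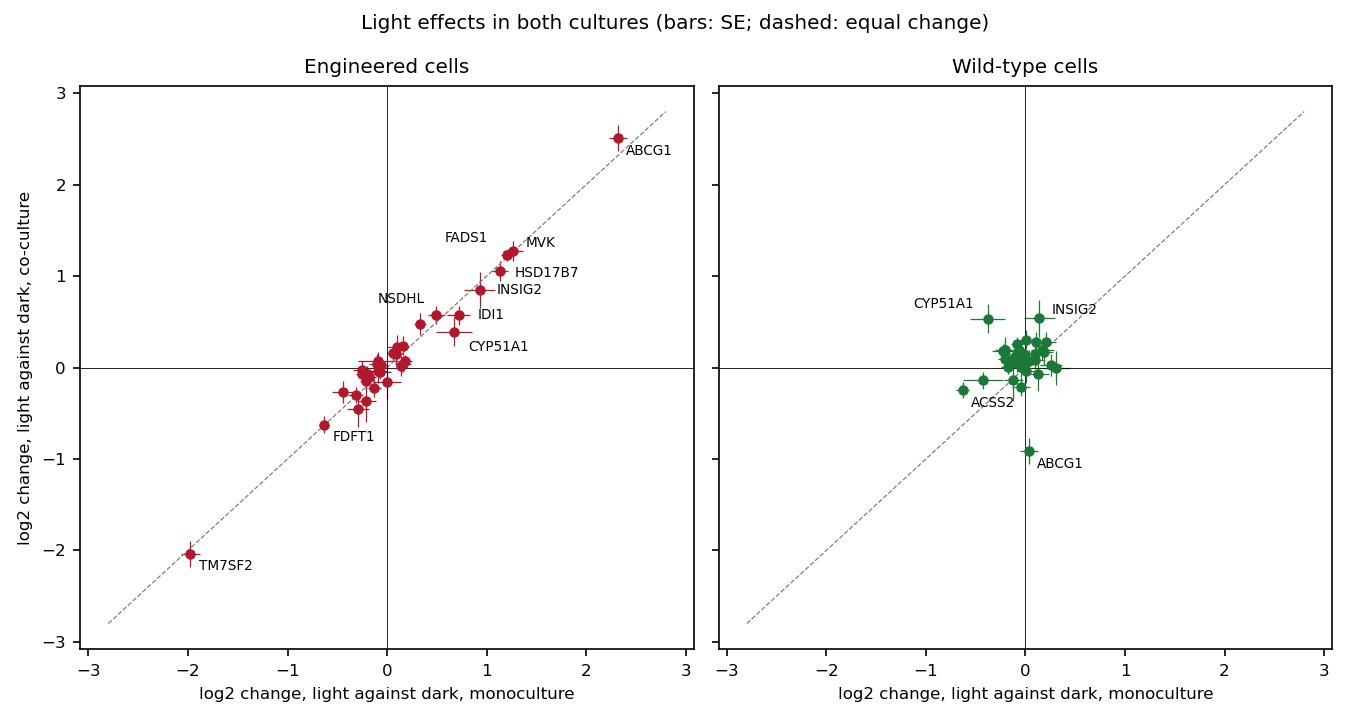
Log2 change under light against dark in co-culture (vertical) and monoculture (horizontal) for the 34 genes, with SE bars, in engineered cells (left) and wild-type cells (right); the dashed line marks equal change. Engineered points lie along the line from TM7SF2 to ABCG1, and wild-type points gather near 0 except ABCG1, at 0.04 in monoculture and -0.91 in co-culture, and ACSS2, CYP51A1 and INSIG2.

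At an adjusted p under 0.05 by limma, illumination changed 1 of the 34 genes in wild-type monoculture. ACSS2 (ENSG00000131069; chr20:34872146-34927962, plus strand), which makes acetyl-CoA from acetate, stood at 1763, 1586 and 1584 in wt light, against 2557, 2499 and 2583 in wt dark. The groups were well apart, and ACSS2 was 1.55-fold lower under light (log2 change -0.63, SE 0.06, adjusted p = 0.000964), a call that held under all alternatives run, each left-out library included. Over all genes 0.072% passed in wt light against wt dark, and 0.0411% of all genes were called lower. By limma 0 of the 34 genes rose, against 0.0309% of all genes. With a higher level 2 had an unadjusted p under 0.05, and edgeR and DESeq2 called 0. With a lower level 7 had an unadjusted p under 0.05, and edgeR and DESeq2 called 1 each. For either direction the share of all genes at an unadjusted p was not counted. The 8 fatty acid genes had a median log2 change of -0.19 and a highest of 0.001, against a median of -0.004 over all genes. The groups did not overlap for 7 of the 34, against 17.8% of all genes. ACSS2 also fell in Cry2 light, by 0.20 on the log2 scale (4073 ± 172 against 4692 ± 155 in Cry2 dark, adjusted p = 0.0102), and the fall in wild-type cells was the larger, by 0.43 (adjusted p = 0.000866). The ACSS2 call in Cry2 light was lost without Cry2 light 1 (adjusted p = 0.0704). In co-culture ACSS2 had a change of -0.07 in mCh light and of -0.24 in GFP light, which did not pass.

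In the dark, engineered cells differed from wild-type cells in ACSS2 in both cultures. Against the wt dark values above, ACSS2 stood at 4704, 4531 and 4841 in Cry2 dark (1.84-fold higher, log2 change 0.88, SE 0.06, adjusted p = 8.95e-07). In mCh dark it stood at 4486, 3826 and 4243, against 3103, 2779 and 3254 in GFP dark (1.37-fold higher, adjusted p = 0.0194). The groups did not overlap in either culture. The ACSS2 call in mCh dark against GFP dark was lost without mCh dark a, mCh dark c, GFP dark a or GFP dark b (adjusted p up to 0.151). GGT7, which overlaps ACSS2 on the opposite strand outside its exons, was 0.41 higher on the log2 scale in Cry2 dark. Of 56 other tested genes that start within 2 Mb of ACSS2, a window chosen after its values were seen, 6 were higher in Cry2 dark than in wt dark by limma, against 2.27% of all genes, with a median log2 change of -0.01. In mCh dark against GFP dark 0 of the 56 were called by limma, 4 had an unadjusted p under 0.05, and edgeR and DESeq2 called 1 each. The share of all genes at an unadjusted p was not counted, and the median log2 change of the 56 was 0.02.

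Together 4 of the 34 genes passed in Cry2 dark against wt dark: 2 were higher, against 2.27% of all genes, and 2 lower, against 1.33%, or 3.6% in either direction. No overlap was seen for 13 of the 34, against 27.4% of all genes. Beside ACSS2, HMGCS1 was higher, with 22563 ± 768 in Cry2 dark against 18121 ± 1154 in wt dark (log2 change 0.32, adjusted p = 0.0127). SREBF1 was lower, with 4442 ± 195 in Cry2 dark against 5543 ± 418 in wt dark (adjusted p = 0.0419), and so was FADS1, with 9817 ± 154 in Cry2 dark against 11711 ± 335 in wt dark (adjusted p = 0.0289). The HMGCS1 call in Cry2 dark against wt dark was lost without Cry2 dark 1, Cry2 dark 2, wt dark 1 or wt dark 2 (adjusted p up to 0.0708). The SREBF1 call in Cry2 dark against wt dark was lost without any 1 of the 6 libraries, or with no filter on low values, or with a replicate block (adjusted p up to 0.192). The FADS1 call in Cry2 dark against wt dark was lost without any 1 of the 6 libraries (adjusted p up to 0.116). At an unadjusted p under 0.05, 9 of the 34 were higher and 3 lower in Cry2 dark, but the share of all genes at that threshold was not counted. MVD and STARD4, not among the 4, were called higher with edgeR (log2 changes 0.33 and 0.34, adjusted p = 0.0471 and 0.0454). DESeq2 also called both higher (0.33 and 0.35, adjusted p = 0.0132 and 0.013), and MSMO1 as well (0.41, adjusted p = 0.0456). In mCh dark against GFP dark, ACSS2 was the only gene of the 34 to pass by limma, against 0.453% of all genes higher. With a higher level 4 had an unadjusted p under 0.05, without a count over all genes beside it, and edgeR and DESeq2 called 1 each. By limma 0 were lower, 0 had an unadjusted p under 0.05 with a lower level, and edgeR and DESeq2 called 0 lower. The median log2 change was 0.13 over the 34 genes and 0.003 over all genes. With limma in a fit of only the groups compared, HMGCS1 (log2 change 0.30, adjusted p = 0.00273), DHCR7 (0.21, adjusted p = 0.0397) and INSIG1 (0.24, adjusted p = 0.0293) were also higher. Of all genes 0.797% passed in either direction. No overlap was seen for 14 of the 34, against 16.5% of all genes.

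Wild-type cells that shared an illuminated dish with engineered cells had less ABCG1. ABCG1 stood at 477, 565 and 463 in GFP light, against 1013, 1004 and 826 in GFP dark. The groups did not overlap, and the GFP light values were the lowest 3 of the 24 libraries. ABCG1 was 1.89-fold lower (log2 change -0.91, SE 0.14, adjusted p = 0.00126), a call that held without each library in turn. In wt light against wt dark ABCG1 had a change of 0.04, and the light effect of wild-type cells differed between the cultures by -0.95 (SE 0.17, adjusted p = 0.00173). The direction is opposite to that in mCh light, whose cells came from the same kind of dish.

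FADS1 rose slightly in GFP light, with 13493 ± 573 against 11249.5 ± 502 in GFP dark (1.2-fold, adjusted p = 0.0375). The FADS1 call in GFP light was lost without GFP light b, GFP light c, GFP dark a, GFP dark b or GFP dark c, or with no filter on low values (adjusted p up to 0.171). Thus 1 of the 34 genes rose in GFP light, against 2.39% of all genes, and 1 fell, against 2.21%, or 4.6% in either direction. At an unadjusted p under 0.05, 10 were higher and 2 lower, but the share of all genes at that threshold was not counted. The median log2 change was 0.09 over the 34 genes and -0.008 over all genes. FADS2 had a change of 0.31, which passed with limma in a fit of only the groups compared (adjusted p = 0.0121). The 8 fatty acid genes had a median change of 0.18 in GFP light. Their light effects exceeded those of wild-type monoculture by 0.15 to 0.40, with 1 called. Against wild-type monoculture, the co-culture light effect was higher for FADS1 by 0.34 (adjusted p = 0.0352) and for CYP51A1 by 0.91 (adjusted p = 0.04), with 1.41% of all genes higher and 0.886% lower, 2.3% in all. The FADS1 call on the difference between cultures was lost without GFP light b, GFP light c, GFP dark a, GFP dark c, wt light 2, wt dark 1, wt dark 2 or wt dark 3, or with no filter on low values (adjusted p up to 0.114). The CYP51A1 call on the difference between cultures was lost without GFP light a, GFP light b, GFP dark a, GFP dark b, GFP dark c, wt light 2, wt dark 1, wt dark 2 or wt dark 3 (adjusted p up to 0.122). CYP51A1 averaged 265 ± 27 in GFP light against 183 ± 17.6 in GFP dark, and 175 ± 44 in wt light against 224 ± 27.8 in wt dark; neither difference passed by itself with limma over the groups of its culture. The GFP light difference of CYP51A1 passed with DESeq2 (adjusted p = 0.0182) and with limma in a fit of only the groups compared (adjusted p = 0.0409). INSIG2, at 649, 419 and 512 in GFP light against 302, 373 and 404 in GFP dark, also showed no overlap, as did 14 of the 34 genes and 24.8% of all genes, and did not pass (log2 change 0.54, adjusted p = 0.177).

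Streak markers were also read in the sorted wild-type cells: the 4 summed to 640.0 to 696 per library in GFP light against 202 to 246 in GFP dark. Of the 4, 3 rose in GFP light, and TBXT stood at 119 ± 14.2 in GFP light, 4.57 ± 2.42 in GFP dark and 27766 ± 2263 in mCh light. TBX6 did not pass, with 127 to 168 in GFP light and 146 to 182 in GFP dark. Of the 4 pluripotency markers, 1 was called in GFP light: NANOG, with 6193 ± 189 against 4006 ± 218 in GFP dark (log2 change 0.63, adjusted p = 0.000757). The other 3 did not pass. POU5F1 averaged 107033 in GFP light against 91340 in GFP dark, LIN28A 70404 against 72431 and SOX2 7437 against 8570. In monoculture NANOG averaged 4318 ± 255 in wt light and 3761 ± 126 in wt dark, which did not pass. The puromycin gene of engineered cells averaged 1.63 in GFP light, 2.50 in GFP dark and 3189 in mCh light. ABCG1 was high in mCh light and low in GFP light. The part of transcripts from engineered cells in the ABCG1, FADS1 and CYP51A1 values of GFP light was not tested.

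In the illuminated co-culture, libraries of 1 group differed widely in STARD4, MSMO1 and SC5D, named here after their values were seen. STARD4 had 2622, 1383 and 1437 in mCh light libraries a, b and c, and 2565, 1508 and 1610.1 in those of GFP light. MSMO1 had 6485, 3658 and 4518 in mCh light and 6152, 3781 and 4363 in GFP light. SC5D had 3299, 1887 and 2217 in mCh light and 3893, 2478 and 2503 in GFP light. In each group library a was the highest for all 3 genes, while it was the lowest for SREBF2, SCAP and EBP; the letters follow column order and do not tie a mCh library to a GFP library. Without mCh light library a, STARD4 fell in mCh light by 0.67 on the log2 scale (adjusted p = 0.00267), SC5D by 0.69 (adjusted p = 0.000597), MSMO1 by 0.38 (adjusted p = 0.0354) and HMGCS1 by 0.33 (adjusted p = 0.00105), and SREBF2 rose by 0.26 (adjusted p = 0.0141), FASN by 0.31 (adjusted p = 0.037), ACLY by 0.34 (adjusted p = 0.00197), LSS by 0.23 (adjusted p = 0.011) and SREBF1 by 0.19 (adjusted p = 0.0453).

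Genes around the pathway were counted from lists named by pathway. Of the 14 uptake, trafficking and storage genes, 5 rose and 5 fell in Cry2 light, where 28.1% of all genes rose and 30.4% fell. In mCh light 5 rose and 3 fell, where 27.2% of all genes rose and 28.7% fell. The median log2 change of the list was 0.01 in both comparisons. SOAT1, which esterifies cholesterol for storage, stood at 1316, 1181 and 1307 in Cry2 light, against 145, 157 and 122 in Cry2 dark, 8.97-fold higher (log2 change 3.16, adjusted p = 1.63e-10). In mCh light it stood at 1448, 1122 and 1332, against 134, 109.8 and 135 in mCh dark, 10.3-fold higher (adjusted p = 1.61e-08). The groups were far apart in both cultures. LIPA, the lysosomal lipase that frees cholesterol from its esters, was lower, with 946 ± 86.2 in Cry2 light against 2797 ± 26 in Cry2 dark, 2.95-fold lower (adjusted p = 5.78e-11), and 996 ± 99.1 in mCh light against 2503 ± 74.6 in mCh dark, 2.51-fold lower (adjusted p = 3.05e-08). LIPA was also higher in the dark in engineered cells, by 0.72 on the log2 scale in Cry2 dark against wt dark and by 0.57 in mCh dark against GFP dark.

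**Figure D5:**
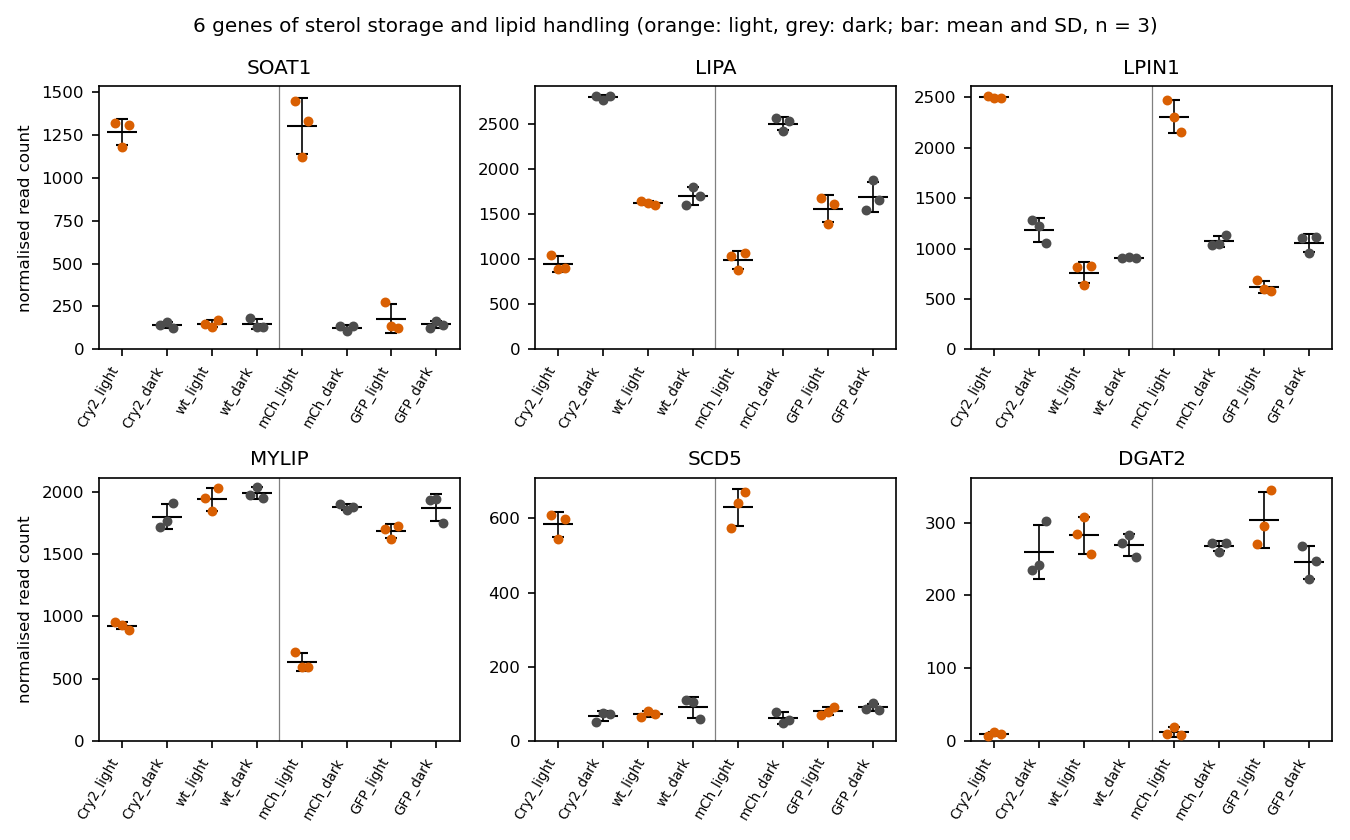
Normalised read counts of 6 genes of sterol storage and lipid handling in the 24 libraries, on linear axes that start at 0; points are libraries, orange for light and grey for dark, and bars give the mean and SD of 3 libraries. SOAT1 and SCD5 are high in Cry2 light and mCh light and LIPA, MYLIP and DGAT2 are low there, while LPIN1 is high in Cry2 light and mCh light and low in GFP light.

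LPIN1, a phosphatidate phosphatase of lipid synthesis, rose 2.11-fold in Cry2 light (2501 ± 12.6 against 1188 ± 118 in Cry2 dark, adjusted p = 1.8e-07) and 2.15-fold in mCh light. Like ABCG1 it fell in GFP light, to 691, 594 and 578 against 1109.8, 955 and 1112 in GFP dark (log2 change -0.77, adjusted p = 0.000306). Of 7 liver X receptor genes and targets outside the 34, 4 rose and 1 fell in each of Cry2 light and mCh light, against the shares of all genes given for the storage list. Among the 34, SREBF1 is another such target, with the log2 changes -0.11 in Cry2 light and 0.04 in mCh light. The 1 that fell was MYLIP, a ubiquitin ligase for lipoprotein receptors and a liver X receptor target, with 925 ± 29.8 in Cry2 light against 1800.1 ± 98.9 in Cry2 dark (1.95-fold lower, adjusted p = 7.34e-09) and 633 ± 71.8 in mCh light against 1878 ± 23.9 in mCh dark (2.97-fold lower, adjusted p = 1.04e-09).

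The counts of the next lists stand against 28.1% of all genes higher and 30.4% lower in Cry2 light, and 27.2% higher and 28.7% lower in mCh light. Among 9 genes listed for the processing of the sterol regulatory element-binding proteins, 5 rose in Cry2 light and 5 in mCh light. In each the other 4 did not pass. Those that rose in both cultures included MBTPS1 and MBTPS2, the proteases that release the sterol regulatory element-binding proteins. MBTPS1 had log2 changes of 0.55 in Cry2 light and 0.67 in mCh light, and MBTPS2 of 0.50 and 0.42. Of 11 genes of the isoprenoid branch, 2 rose and 2 fell in Cry2 light, and 1 rose and 1 fell in mCh light. Of 20 other fatty acid and glyceride genes, 8 rose and 6 fell in Cry2 light, and 7 rose and 5 fell in mCh light. SCD5, a second desaturase of the SCD kind, rose 8.75-fold in Cry2 light (584 ± 34 against 66.7 ± 13.8 in Cry2 dark, adjusted p = 2e-08). DGAT2, an enzyme of triglyceride synthesis, fell to 6.33, 12.2 and 9.76 in Cry2 light against 235, 242 and 302 in Cry2 dark (27.6-fold lower, adjusted p = 4.31e-11). Of 12 genes of fatty acid oxidation, 5 rose and 2 fell in Cry2 light, and 5 rose and 1 fell in mCh light; CPT1A, which admits long-chain fatty acids to mitochondria, fell by 1.39 and 1.53 on the log2 scale.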

How the data were processed

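RNA of 24 H9 libraries was sequenced with a kit that keeps strand, per the labels' protocols. Per the submitters' processing notes, FastQC, cutadapt, Bowtie2, STAR, HTSeq and DESeq were used, with no versions stated. GRCh38 is the build in those notes, but the authors' sample table has hg19 with 4 added genes, so coordinates come from GENCODE 29 or RefSeq by gene. The authors' deposited gene table holds a signal, read counts divided by 1 size factor per library; 100.0% of its values came out as whole reads within 0.01. The authors' deposited sample table lists read counts, percent GC, percent aligned and an RNA integrity score. Among the monoculture libraries, Cry2 dark 3 had an integrity score of 7.6, against 8.9 to 10.0 for the others. The percent GC of wt dark 1 was 33.73, against 50.47 to 51.77 for the others. For monoculture, titles and genotype tags of the labels conflict; groups follow the titles, and construct reads go with these. Co-culture columns name only a group.

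Members and lists were chosen with earlier results of these data known. The test was limma-trend 3.58.1 (R 4.3.3) on log2(value + 1), for genes at 10 or more in at least 3 libraries of the fit, with Benjamini-Hochberg adjusted p under 0.05 over all genes: 19444 in the 12 monoculture libraries, 19436 in the 12 co-culture libraries and 20322 in all 24. Log2 changes carry the pseudocount; folds are ratios of means. Alternatives were edgeR 4.0.16 (quasi-likelihood, TMM) and DESeq2 1.42.0 on the recovered reads, TMM scaling, other pseudocounts and filters, other sets of groups, a replicate block and single libraries left out. All 34 genes could be named; of other lists, up to 4 genes per list and direction by size of change, and genes that overlap a member. Some genes of these lists are not reported here. The scripts were tested on simulated data.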

Additional observations from a re-analysis of the deposited data

Results flagged for a closer look

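Genes are given here where the light effect differed between cell groups by an interaction term in limma at an adjusted p under 0.05, with the difference on the log2 scale. In monoculture, the effect in Cry2 cells minus that in wt cells was above 0 for MVK (1.06), IDI1 (0.55), CYP51A1 (1.05), NSDHL (0.39), HSD17B7 (1.02), INSIG2 (0.79), SCAP (0.30), ACLY (0.33), ACSS2 (0.43), ELOVL6 (0.23), FADS1 (1.29) and ABCG1 (2.28). It was below 0 for PMVK (-0.70), FDFT1 (-0.62), TM7SF2 (-2.16), SC5D (-0.42) and FADS2 (-0.25). In co-culture, the effect in mCh cells minus that in GFP cells was above 0 for MVK (0.99), NSDHL (0.49), HSD17B7 (0.78), FADS1 (0.97) and ABCG1 (3.42). It was below 0 for FDFT1 (-0.67), TM7SF2 (-2.21), SCD (-0.49) and FADS2 (-0.38). Such a difference can include a rise in GFP cells, as for FADS2, which had a change of 0.31 in GFP light.

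For wild-type cells, the light effect in co-culture minus that in monoculture was above 0 for CYP51A1 (0.91) and FADS1 (0.34) and below 0 for ABCG1 (-0.95). In ABCG1 the 3 GFP light libraries lay below the 3 GFP dark libraries, while wt light and wt dark had a difference of 0.04. For ACSS2 the light effects were -0.20 in Cry2 cells and -0.63 in wt cells. Some of these differences kept their direction but lost their call in at least 1 of the fits with 1 library left out. They were those of ELOVL6, FADS2 and SC5D in monoculture, of FADS2 in co-culture, and of FADS1 and CYP51A1 between the wild-type cultures. With all 24 libraries in the fit, the monoculture differences of SCAP (adjusted p = 0.0884), SC5D (0.153), ELOVL6 (0.155) and FADS2 (0.0834) also lost their call. With no filter on low values so did those of SC5D in monoculture (0.0617), FADS2 in co-culture (0.0714) and FADS1 between the wild-type cultures (0.059), and with a replicate block that of SC5D (0.0503).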

How the results depend on the processing

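Of 5644 values of the 34 genes recomputed over the 10 comparisons, 5470 kept direction and side of the threshold, 103 lost a call, 71 gained one and 0 reversed. In Cry2 dark against wt dark, 2 genes higher became 4 with edgeR, 5 with DESeq2, 4 with a pseudocount of 5, 4 with a mean of at least 50 and 9 in a fit of only the groups compared, and 2 lower became 1 with no filter. Over all genes 441 higher became 514, 776, 508, 476 and 1356 in the same order, and 259 lower became 206. In GFP light against GFP dark, 1 higher became 2 with DESeq2, 0 with no filter and 3 with only the groups compared. Over all genes 465 higher became 715, 409 and 672. In mCh light against mCh dark, 3 lower became 6 with TMM scaling, while over all genes 5569 became 5765. In mCh dark against GFP dark, 1 higher became 4 with only the groups compared, while over all genes 88 became 225. The 5 monoculture light effects lower in Cry2 than in wt cells became 3 with all 24 libraries, while over all genes 4870 became 4718. The 2 wild-type light effects higher in co-culture became 4 with DESeq2, 1 with no filter and 4 with a mean of at least 50. Over all genes 287 became 429, 256 and 310. The causes were not tested.

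With 1 library left out, the genes higher and lower ranged from 9 to 11 and 7 to 10 in Cry2 light against Cry2 dark, 8 to 14 and 3 to 7 in mCh light against mCh dark, 1 to 3 and 0 to 0 in Cry2 dark against wt dark, and 0 to 1 and 1 to 1 in GFP light against GFP dark. Over all genes, in the same order, the ranges were 4619 to 5101 and 5497 to 5606, and 4514 to 5428 and 4953 to 6047. The last comparisons gave 211 to 280 and 104 to 168, and 255 to 419 and 215 to 362. They ranged from 0 to 1 higher in mCh dark against GFP dark, 11 to 13 and 3 to 6 for Cry2 minus wt, 5 to 7 and 3 to 6 for mCh minus GFP, and 0 to 4 and 1 to 1 for wild-type co-culture minus monoculture.

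Monoculture replicate numbers did not pair the libraries (correlations of same-numbered deviations between -0.047 and 0.046). With the replicate block, 12 genes were higher and 11 lower in Cry2 light against Cry2 dark, 0 and 1 in wt light against wt dark, 3 and 1 in Cry2 dark against wt dark, and 12 and 4 for Cry2 minus wt. Over all genes these were 5426 and 5870, 5 and 5, 384 and 221, and 4361 and 4804. For the co-cultures no paired analysis was possible because their columns carry no replicate numbers.

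Over all genes, Cry2 light against Cry2 dark gave 11360 calls with limma and 11381 with edgeR on the recovered reads. In wt light against wt dark there were 14 calls with limma, 47 with edgeR and 290 with DESeq2, and in Cry2 dark against wt dark 700, with 1234 by DESeq2 and 2470 in a fit of only the groups compared. Each group had 3 libraries, and in monoculture depth and light coincide.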

Other observations

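On the log2 scale against the dark groups, ELOVL2, an elongase of highly unsaturated chains, rose by 2.08 in Cry2 light and 2.60 in mCh light, and ELOVL1, an elongase of saturated and monounsaturated chains, rose by 0.76 in Cry2 light and 0.87 in mCh light. ELOVL7, another elongase, fell, with changes of -2.71 in Cry2 light and -2.38 in mCh light. ELOVL5 had changes of -0.02 and -0.06, and ELOVL6, one of the 34, of 0.14 and 0.02. ACACB, the carboxylase at the mitochondrial surface whose product inhibits CPT1A, fell as well, with changes of -1.69 and -1.89 in the same comparisons, while ACACA gave no call. ETFB, a subunit of the electron transfer flavoprotein that serves fatty acid oxidation, rose by 0.55 in Cry2 light and 0.79 in mCh light.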
